A study of Homo sapiens with 9 samples.

Results

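The heat shock protein and DNAJ chaperone genes were followed across 3 groups of 293T libraries: empty vector, HA-CIC::DUX4 and HA-CIC(ex20)::NUTM1(ex6). Members were taken by symbol: every HSPA gene, HSPB gene, DNAJA, DNAJB and DNAJC gene with a number, the HSP90 genes HSP90AA1, HSP90AB1 and HSP90B1, and HSPD1, HSPE1 and HSPH1. The rule left out 1 gene of the 71 that match these patterns. This gave 70 of the 62700 genes in the count table, of which 60 passed the filter on low counts and were tested. The rule singles out HSPB8 because it fell with CIC::DUX4, so HSPB8 in that comparison is given as a description, and the question is whether other chaperone genes moved.

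293T cells are transformed cells from human embryonic kidney, widely used because plasmids enter them easily. All 3 groups were transfected with Fugene 6, the controls with a plasmid carrying no insert, at 300000 cells per condition, and polyA RNA was collected after about 48 hours. Both fusions are HA-tagged and were produced transiently from plasmids in this 1 line, so the groups describe short overexpression and not a tumour. Each group had 3 libraries that the labels place on separate days. They say nothing more of how the cultures differed, and p-values set a difference between groups against the spread between these libraries. CIC is a DNA-binding repressor that is found joined to DUX4 or to NUTM1 in sarcomas. No check of the labels through the fused genes themselves was made, as those transcripts were not analysed here.

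Heat shock proteins are chaperones that bind unfolded or misfolded proteins. HSP70 proteins (the HSPA genes) hold and release clients in cycles of ATP hydrolysis, and J-domain proteins (the DNAJ genes) deliver clients to them and stimulate the ATPase, while HSP110 proteins exchange the nucleotide. HSP90 proteins mature kinases and steroid receptors, the chaperonin of HSPD1 and HSPE1 folds proteins in mitochondria, and small heat shock proteins (the HSPB genes) hold unfolded proteins without ATP. Many of these genes are induced by the transcription factor HSF1, which binds heat shock elements, inverted repeats of the unit nGAAn. CIC binds octamers such as TGAATGAA and TGAATGGA.

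Stretches of 30 bases from the promoters of 10 members that the results below turn on are shown because they carry paired units of heat shock elements. Whether HSF1 binds these stretches was not examined. They come from RefSeq windows on GRCh38.p14 running from 250 bases before to 50 bases after a transcription start, and they are printed 5′ to 3′ on the strand of the gene. Capitals mark every match to GAANNTTC or TTCNNGAA, the 2 ways in which a pair of units can face each other. Both patterns read the same on either strand, and overlapping matches run together.
HSPB8 (chr12:119178832-119178861, plus strand): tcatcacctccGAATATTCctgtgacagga
HSPB1 (chr7:76302480-76302509, plus strand): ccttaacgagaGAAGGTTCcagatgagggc
HSPA1B (chr6:31827622-31827651, plus strand): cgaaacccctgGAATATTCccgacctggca
DNAJB1 (chr19:14518426-14518455, minus strand): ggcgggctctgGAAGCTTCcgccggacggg
DNAJB4 (chr1:78004830-78004859, plus strand): agcatttgctgTTCTAGAAagtacagagac
DNAJB6 (chr7:157336865-157336894, plus strand): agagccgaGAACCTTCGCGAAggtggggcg
HSP90AA1 (chr14:102087104-102087133, minus strand): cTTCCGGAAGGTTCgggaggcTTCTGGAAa
HSP90AB1 (chr6:44247823-44247852, plus strand): tgagattgTTCTGGAAGCTTCtggattctg
HSPA8 (chr11:123062170-123062199, minus strand): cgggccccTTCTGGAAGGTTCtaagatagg
HSPD1 (chr2:197500061-197500090, minus strand): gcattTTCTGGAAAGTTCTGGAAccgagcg
The first 5 show a single pair of units each. In DNAJB6, HSP90AA1, HSP90AB1, HSPA8 and HSPD1, 3 units or more alternate without a break.

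Of the 70 members, 62 matched the table of promoters, with 81 windows between them. GAANNTTC was found in 22.2% of the members' windows, against 6.77% of all 35116 windows of the same length, and TTCNNGAA in 16% against 7.74%. An unbroken alternation of 3 units, each facing the next, which contains both shorter patterns, was present in 8.64% of the members' windows and 0.49% of all. It was held by DNAJA1, DNAJB6, HSP90AA1, HSP90AB1, HSPA6, HSPA8 and HSPD1. The CIC octamers, searched on both strands, were rarer. TGAATGAA lay in windows of DNAJC17 and DNAJC6 (2.47% of the members' windows, 1.65% of all), and TGAATGGA in a window of HSPA13 (1.23% and 1.03%). These letters were not in the windows of the 15 matched members that passed the test in any comparison. A match describes the letters of a window and is not evidence of binding.

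Total counts per library lay between 16970771 and 33655445. Libraries of 1 group differed by more than counting noise, with a chi-square of counts over genes between 5.73 and 9.71 times its degrees of freedom, so all 9 were kept apart. All 8 markers fixed for the embryonic kidney line stood at 1 CPM or more in every group. CPM stands for counts scaled to a common library size, with TMM scaling, a correction for library composition. The summed level of these markers was 844 to 903 CPM with empty vector, 940 to 978 with CIC::DUX4 and 1033 to 1118 with CIC::NUTM1. Of 8 markers of other cell types, only LUM reached 1 CPM on average, and their sum was 2.35 to 3.46, 6.13 to 9.38 and 8.53 to 11.0 CPM in the same order. LUM and PTPRC passed the test as higher with each fusion against empty vector, and DCN with CIC::NUTM1. PTPRC had 0, 2 and 0 counts with empty vector, 24, 3 and 3 with CIC::DUX4 and 24, 16 and 13 with CIC::NUTM1. DCN had 0, 4 and 0 counts with empty vector. Both genes passed the filter on low counts only through fusion libraries, so their calls are a description and no support for a shift. CD3E was at 0 counts with empty vector and with CIC::NUTM1. The part of these shifts in the chaperone results was not tested. In bulk RNA, fewer cells of a kind and less RNA per cell cannot be told apart.

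Chaperone RNA in 293T cells was led by cytosolic HSP90 and HSP70 and by the mitochondrial chaperonin. Per kilobase of annotated exon (GENCODE 29), averaged over the 9 libraries, HSP90AB1, the constitutive cytosolic HSP90, was highest at 749.97 CPM per kb. HSP90AA1, the inducible cytosolic HSP90, followed at 502, HSPA8, the constitutive HSP70, at 375, and HSPD1, the mitochondrial chaperonin, at 310.5. After HSPA1B (197), the inducible HSP70, came DNAJA1 (147), HSPA5 (146) and HSP90B1 (139), whose levels lay close together. HSPA5 and HSP90B1 are the HSP70 and HSP90 of the endoplasmic reticulum. The leading member of each other class was HSPA4 among the HSP110 genes (87.1), DNAJC8 among DNAJC (65.2), HSPB1 among the small heat shock proteins (57.0) and DNAJB1 among DNAJB (51.6). Exon length counts every annotated transcript, so a gene with a rare long form, such as HSP90AA1, is understated. HSP90AA1, HSP90AB1, HSPA8 and HSPD1 carried 18.5%, 15.7%, 12.8% and 9.26% of all CPM assigned to the members.

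**Figure D1:**
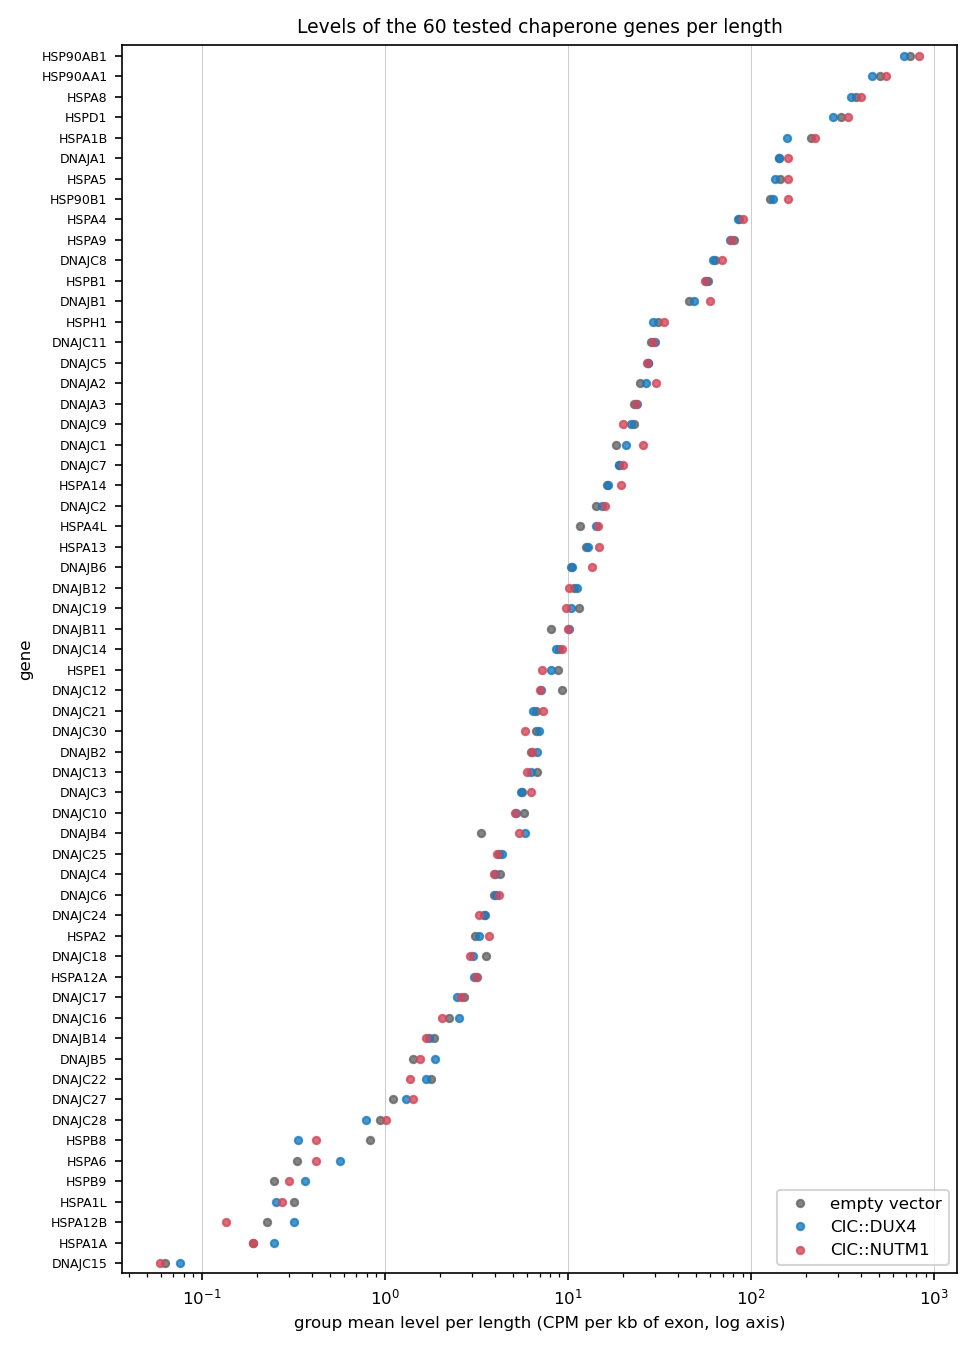
Mean level of the 60 tested members in each group, in CPM per kilobase of exon on a log axis, ordered by the mean over all 9 libraries. The order runs from HSP90AB1 at 749.97 CPM per kb down to HSPA1L, HSPA12B, HSPA1A and DNAJC15 near the limit of detection, and the 3 groups lie close together for most genes.

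With CIC::DUX4 few chaperone genes moved. Against empty vector, DNAJB4, DNAJB11 and HSPA4L rose and HSP90AA1 and HSPB8 fell, where called means a Benjamini-Hochberg adjusted p under 0.05 from edgeR's quasi-likelihood test over all 17576 genes tested. That is 5% of the 60 tested members called higher, against 6.96% of all genes tested. HSP90AA1 was the 1 member called lower among the 59 tested besides HSPB8 (1.69%), against 1.27% of all genes tested, so neither share was far from the background. The median log2 fold change was -0.01 for the members and -0.00 for all genes tested. Fusion and control libraries were fully separated for 6 members that were higher and 10 that were lower, HSPB8 among them, while among all genes tested this held for 14.8% and 11.0%. Of the 21 members with a mean of at least 100 CPM, 1 rose and 1 fell, beside 4.95% and 2.8% of the 2467 genes at that level.

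With CIC::NUTM1 more members rose. DNAJA2, DNAJB1, DNAJB4, DNAJB6, DNAJB11, DNAJC1, HSP90AB1, HSP90B1, HSPA14 and HSPA4L were called higher against the same empty vector libraries, and DNAJC12 was called lower. These are 16.7% and 1.67% of the tested members, against 11.5% and 3.83% of all genes tested. Among the abundant genes, of at least 100 CPM, where small changes are easier to call, 6 of 21 members rose and the other 15 were not called, against 13.7% called higher and 5.47% called lower of 2467 genes. Groups did not overlap for 15 higher and 5 lower members (18.2% and 12.9% of all genes tested). Both fusions were compared with the same 3 control libraries, so their results are not independent of each other, and the values for each are given side by side below.

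Setting the fusions against each other gave 10 members that were higher with CIC::NUTM1: HSP90AA1, HSP90AB1, HSP90B1, HSPA5, HSPA8, HSPD1, HSPH1, DNAJB1, DNAJB6 and DNAJC1. This is 16.7% of the tested members, against 4.97% of all genes tested. Of the 21 members with a mean of at least 100 CPM, 9 were among them, beside 9.12% of all genes at that level called higher and 0.973% called lower. No member was called lower by edgeR, by DESeq2 (0) or by limma-trend (0), where 1.64% of all genes tested were, and 2 of 60 members were lower at an unadjusted edgeR p under 0.05, where 7.37% of all genes tested were. The groups did not overlap for 15 members higher and 3 lower with CIC::NUTM1 (12.6% and 9.36% of all genes tested). All of the changes called between the fusions were small, between 0.18 and 0.36 on the log2 scale.

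**Figure D2:**
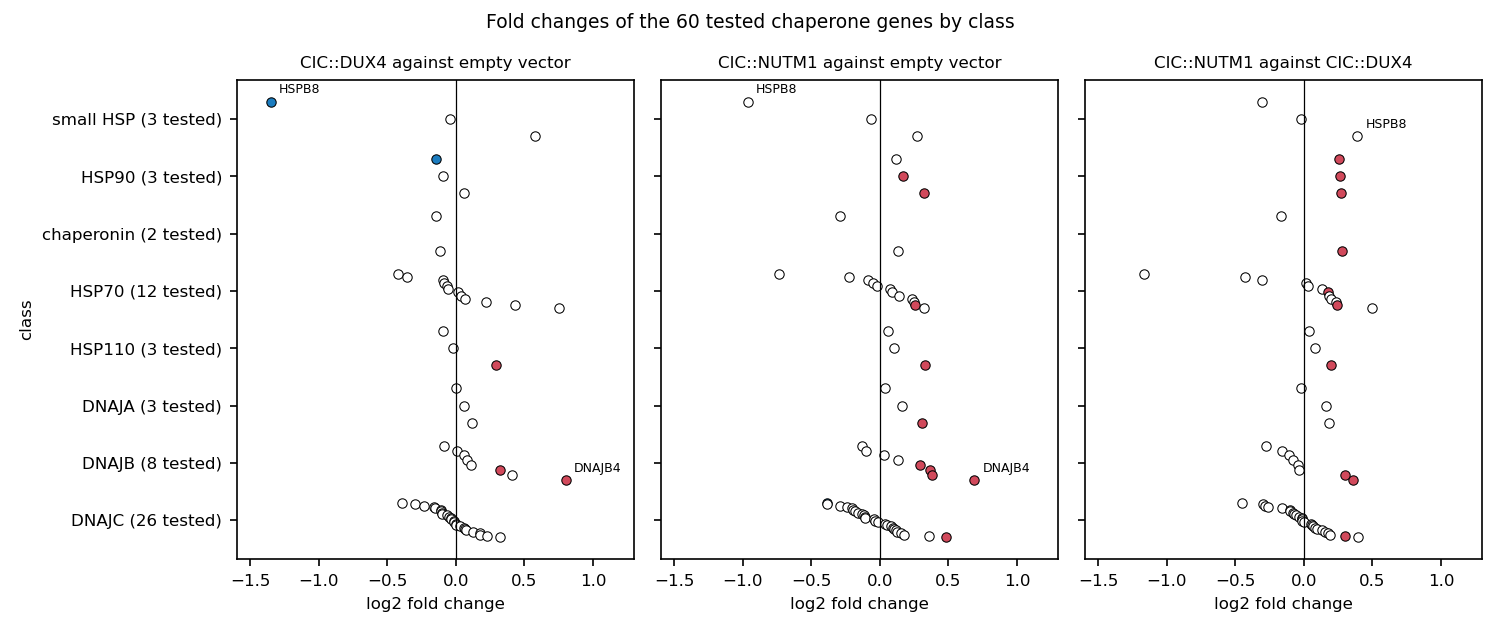
Log2 fold change of each of the 60 tested members by class, in the 3 comparisons, with genes called higher in red, genes called lower in blue and open circles for genes not called. HSPB8 at -1.35 and DNAJB4 at 0.80 stand furthest out among called genes in the left panel, and all 3 HSP90 genes are red in the comparison of the fusions.

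HSPB8 (ENSG00000152137), a small heat shock protein that works with the co-chaperone BAG3 in selective autophagy, was a rare transcript in all groups. It had 25, 95 and 72 counts with empty vector, 18, 16 and 24 with CIC::DUX4 and 19, 47 and 13 with CIC::NUTM1. As levels these were 1.43, 2.78 and 2.89 CPM (2.37 ± 0.812, mean ± SD over 3 libraries, as throughout) with empty vector. CIC::DUX4 libraries held 0.687, 0.767 and 1.41 CPM (0.955 ± 0.397), and CIC::NUTM1 libraries 1.14, 1.80 and 0.673 CPM (1.20 ± 0.565). The highest CIC::DUX4 library came just under the lowest empty vector library, and the CIC::NUTM1 libraries overlapped both groups. The fall that chose it was -1.35 ± 0.42 (log2 fold change ± SE), with an edgeR adjusted p of 0.0459. The call was lost when empty vector replicate 2 or 3 or CIC::DUX4 replicate 1 or 2 was left out, with an edgeR adjusted p of 0.0224 to 0.23 over the 6 refits, and with limma-trend (-1.23, adjusted p 0.0631).

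With CIC::NUTM1 the change of HSPB8 was -0.96 ± 0.41 and was not called (edgeR adjusted p 0.122), although without CIC::NUTM1 replicate 2 it was -1.41 and called (edgeR adjusted p 0.0414). Between the fusions HSPB8 differed by 0.39 ± 0.44 (edgeR adjusted p 0.72), so an effect on HSPB8 particular to CIC::DUX4 was not shown. BAG3, its partner and an HSP70 co-chaperone, stood at 73.3, 74.4 and 79.5 CPM with empty vector and 84.8, 75.7 and 94.2 with CIC::DUX4. It did not pass the test there (0.16 ± 0.08, edgeR adjusted p 0.303). With CIC::NUTM1 BAG3 reached 102, 87.3 and 85.5 CPM and rose by 0.27 ± 0.08 (edgeR adjusted p 0.0277).

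The other small heat shock proteins tested, HSPB1 and HSPB9, were not called in any comparison by edgeR. HSPB1 (ENSG00000106211), the main one in these cells and a chaperone that also protects actin, had 104, 86.9 and 95.7 CPM with empty vector. Its levels were 87.5, 86.2 and 104 CPM with CIC::DUX4 and 106, 87.4 and 80.5 CPM with CIC::NUTM1. The 3 groups overlapped, and its changes against empty vector were -0.04 and -0.06 (edgeR adjusted p 0.869 and 0.748). HSPB9, a testis-expressed member, never exceeded 1.18 CPM, and its values in the 3 groups overlapped. HSPB2, HSPB3, HSPB6 and HSPB7 did not pass the filter, and none of them had more than 13 counts in any library.

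DNAJB4 (ENSG00000162616), a cytosolic J-domain protein of the same subclass as DNAJB1, showed the largest called rise among the members with either fusion. It stood at 12.1, 13.3 and 12.4 CPM with empty vector (12.6 ± 0.628). CIC::DUX4 libraries reached 23.3, 24.4 and 18.1 CPM (22.0 ± 3.38) and CIC::NUTM1 libraries 19.1, 19.4 and 22.6 CPM (20.4 ± 1.94). Every fusion library lay above every control library, and the fusion groups overlapped. The change was 0.80 ± 0.13 with CIC::DUX4 (edgeR adjusted p 0.000107) and 0.69 ± 0.13 with CIC::NUTM1 (edgeR adjusted p 0.000392). Both calls held in each refit without a library and in each of the 9 other settings tried. Between the fusions DNAJB4 differed by -0.11 ± 0.13 (edgeR adjusted p 0.729). GIPC2, which overlaps it on the same strand, was at 0.106, 0.102 and 0.377 CPM on average in the 3 groups.

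HSPA4L and DNAJB11 were also called with both fusions. HSPA4L (ENSG00000164070), an HSP110-type nucleotide exchange factor, was at 135, 139 and 133 CPM with empty vector, 179, 169 and 151 with CIC::DUX4 and 157, 162 and 193 with CIC::NUTM1. All 6 fusion libraries were above the controls, and the rises were 0.29 ± 0.08 and 0.33 ± 0.08 (edgeR adjusted p 0.013 and 0.00313). DNAJB11, a soluble J-domain protein of the endoplasmic reticulum that serves HSPA5, had 49.4, 44.8 and 45.6 CPM with empty vector. Its levels were 55.4, 54.7 and 64.9 CPM with CIC::DUX4, all above the controls, and 62.1, 48.6 and 60.7 with CIC::NUTM1, where 1 library fell within the control range. The rises of DNAJB11 were 0.32 ± 0.10 and 0.29 ± 0.10 (edgeR adjusted p 0.0345 and 0.04). These calls depended on single libraries. With CIC::DUX4, HSPA4L lost its call without empty vector replicate 1 or 3 or CIC::DUX4 replicate 1 or 2 (edgeR adjusted p up to 0.138), and DNAJB11 without empty vector replicate 2 or 3 or CIC::DUX4 replicate 1 or 3 (up to 0.182). With CIC::NUTM1, HSPA4L lost it without CIC::NUTM1 replicate 3 (edgeR adjusted p 0.0722), and DNAJB11 in 5 of the 6 refits (up to 0.199) and with library totals or upper quartile factors as scaling.

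The opposite direction was seen for DNAJC12 (ENSG00000108176), a J-domain protein that serves the aromatic amino acid hydroxylases. Its 3 control libraries, at 20.2, 19.2 and 19.9 CPM, lay above all fusion libraries, at 14.7, 16.5 and 13.9 with CIC::DUX4 and 12.8, 17.3 and 15.0 with CIC::NUTM1. The change was -0.39 ± 0.13 with each, which passed the test with CIC::NUTM1 (edgeR adjusted p 0.0432) and missed it with CIC::DUX4 (edgeR adjusted p 0.0654), where it was called with no filter, with DESeq2 and with the 2 groups alone. With CIC::NUTM1 the call was lost in 5 of the 6 refits without a library (edgeR adjusted p up to 0.196), all but that without CIC::NUTM1 replicate 2.

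**Figure D3:**
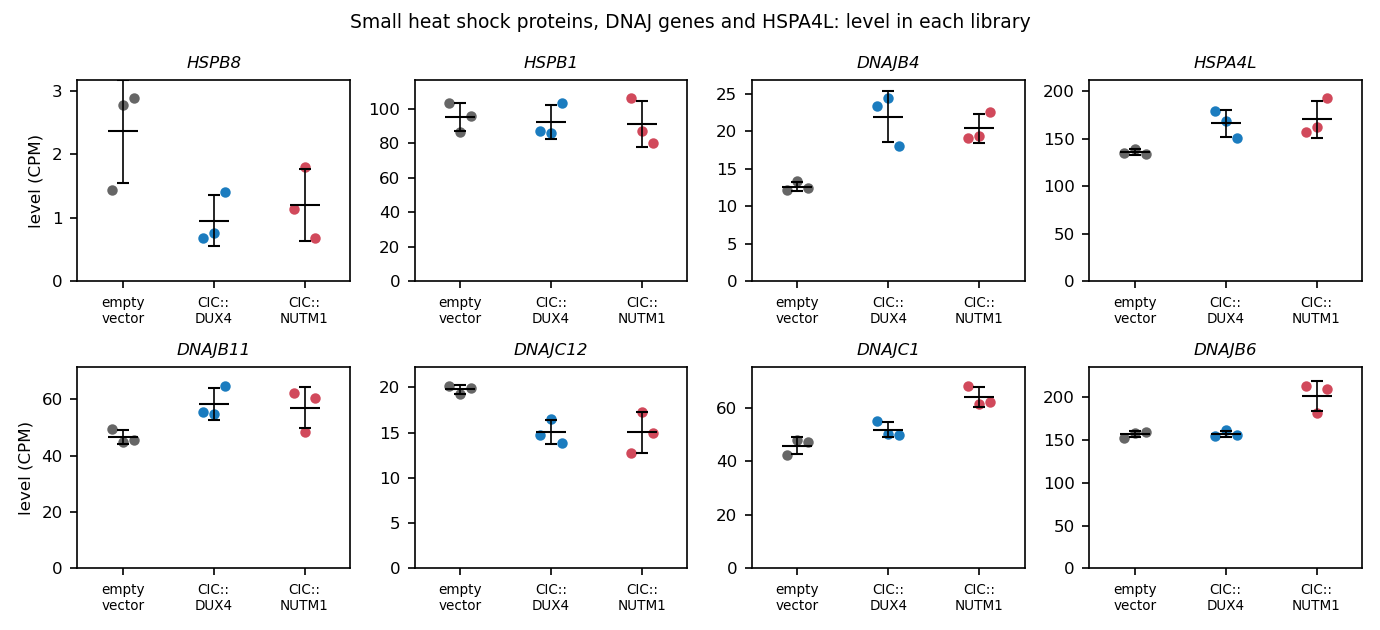
Level of 8 members in each library, in TMM-scaled CPM on axes from 0, with points for libraries and bars for the mean and SD of 3 libraries. DNAJB4 and HSPA4L sit higher in all 6 fusion libraries than in the controls, DNAJC12 sits lower, and DNAJB6 and DNAJC1 are highest in the CIC::NUTM1 libraries.

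DNAJB6, DNAJB1 and DNAJC1 were called higher with CIC::NUTM1 against both other groups. DNAJB6 (ENSG00000105993), which suppresses the aggregation of polyglutamine proteins, was at 152, 158 and 159 CPM with empty vector and 155, 161 and 155 with CIC::DUX4. With CIC::NUTM1 it reached 214, 181 and 210 CPM, above all other libraries. The differences were 0.36 ± 0.07 from empty vector (edgeR adjusted p 0.000216) and 0.36 from CIC::DUX4 (edgeR adjusted p 0.00077), and both calls held without each library in turn. The change of DNAJB6 with CIC::DUX4 was 0.01, with the 2 groups overlapping.

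DNAJB1 (ENSG00000132002), the principal heat-inducible J-domain partner of HSPA1A and HSPA8, had 172, 165 and 170 CPM with empty vector, 182, 173 and 182 with CIC::DUX4 and 244, 196 and 221 with CIC::NUTM1. It rose by 0.38 ± 0.07 with CIC::NUTM1 against empty vector (edgeR adjusted p 0.000201) and by 0.30 against CIC::DUX4 (edgeR adjusted p 0.00661). The second call was lost without CIC::DUX4 replicate 2 (edgeR adjusted p 0.0522). DNAJC1, a membrane J-domain protein of the endoplasmic reticulum, was at 42.2, 48.0 and 47.1 CPM with empty vector, 55.0, 50.3 and 49.9 with CIC::DUX4 and 68.3, 61.5 and 62.2 with CIC::NUTM1. The 3 groups did not overlap. DNAJC1 rose by 0.48 ± 0.08 with CIC::NUTM1 (edgeR adjusted p 0.000148), was 0.18 higher with CIC::DUX4 without passing the test (edgeR adjusted p 0.252), and differed by 0.30 between the fusions (edgeR adjusted p 0.0261). That last call was lost without CIC::NUTM1 replicate 1 or 3 or CIC::DUX4 replicate 2 or 3 (edgeR adjusted p up to 0.123), with library totals and with the 2 groups alone.

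DNAJA2 and HSPA14 completed the members called higher with CIC::NUTM1 outside the HSP90 class. DNAJA2, a cytosolic J-domain protein that supports HSP70 refolding, rose from 125 ± 7.85 to 154 ± 7.92 CPM (0.31 ± 0.08, edgeR adjusted p 0.00578), with the call lost without empty vector replicate 1 or CIC::NUTM1 replicate 3 (edgeR adjusted p up to 0.0575). HSPA14, a ribosome-associated HSP70, went from 43.5 ± 1.31 to 51.8 ± 2.68 CPM (0.25, edgeR adjusted p 0.0455). Its call was lost in 5 of the 6 refits without a library and in 5 of the 9 other settings.

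The HSP90 genes were ordered in the same way between the fusions. HSP90AA1 (ENSG00000080824) had 2584, 2624 and 2729 CPM with empty vector, 2457, 2388 and 2336 with CIC::DUX4 and 2814, 2819 and 2967 with CIC::NUTM1. None of these 3 groups overlapped. It fell by 0.14 ± 0.04 with CIC::DUX4 (edgeR adjusted p 0.0446), a call that was lost in each of the 6 refits without a library (edgeR adjusted p 0.0652 to 0.214) and in 3 of the 9 other settings. With CIC::NUTM1 the difference from empty vector was 0.12 and not called (edgeR adjusted p 0.0858), though called with limma-trend (adjusted p 0.0488), and between the fusions HSP90AA1 was higher with CIC::NUTM1 by 0.26 ± 0.04 (edgeR adjusted p 0.000354).

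HSP90AB1 (ENSG00000096384) showed 2165, 2090 and 2316 CPM with empty vector, 2055, 2034 and 2055 with CIC::DUX4 and 2494, 2443 and 2462 with CIC::NUTM1. Again no 2 groups overlapped. It rose with CIC::NUTM1 by 0.17 ± 0.05 against empty vector (edgeR adjusted p 0.0107) and by 0.27 against CIC::DUX4 (edgeR adjusted p 0.000343). The first of these calls was lost without empty vector replicate 1 or 2 or CIC::NUTM1 replicate 3 (edgeR adjusted p up to 0.0875), with upper quartile factors and with no filter. With CIC::DUX4 the change from empty vector was -0.10 (edgeR adjusted p 0.248). HSP90B1 (ENSG00000166598) was at 623, 556 and 610 CPM, 669, 603 and 589 CPM, and 723, 736 and 773 CPM in the same order of groups. Its CIC::NUTM1 libraries lay above all others, by 0.32 ± 0.06 against empty vector (edgeR adjusted p 0.000248) and 0.26 against CIC::DUX4 (edgeR adjusted p 0.00512, lost at 0.0696 without CIC::NUTM1 replicate 3).

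HSPA8, HSPA5, HSPD1 and HSPH1 passed the test between the fusions and not against empty vector. HSPA8 (ENSG00000109971) stood at 1746, 1823 and 1876 CPM with empty vector, 1754, 1703 and 1660 with CIC::DUX4 and 1963, 1815 and 2019 with CIC::NUTM1. The fusion groups did not overlap, and HSPA8 was 0.18 ± 0.05 higher with CIC::NUTM1 (edgeR adjusted p 0.0251), a call lost without CIC::NUTM1 replicate 1 or 3 or CIC::DUX4 replicate 2 or 3 (up to 0.276) and in 4 of the 9 other settings. Its control libraries reached into both fusion groups.

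HSPA5 (ENSG00000044574), the chaperone that restrains the unfolded protein response sensors of the endoplasmic reticulum, had 560, 555 and 575 CPM with empty vector, 526, 533 and 523 with CIC::DUX4 and 641, 606 and 620 with CIC::NUTM1. The control libraries lay between the fusions without overlap. It was not called against empty vector in either comparison (-0.10 and 0.14, edgeR adjusted p 0.303 and 0.055), the second being called with limma-trend (adjusted p 0.0429) and without CIC::NUTM1 replicate 2 (edgeR adjusted p 0.0488), and the fusions differed by 0.24 ± 0.05 (edgeR adjusted p 0.00288). HSPA9, the mitochondrial HSP70, was not called, with changes of -0.06 and -0.05 against empty vector and 0.02 between the fusions.

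HSPD1 (ENSG00000144381) followed a similar order, with 1342, 1254 and 1360 CPM with empty vector, 1183, 1199 and 1190 with CIC::DUX4 and 1452, 1424 and 1457 with CIC::NUTM1. No groups overlapped. The changes against empty vector were -0.15 and 0.13 and narrowly missed the threshold (edgeR adjusted p 0.0542 and 0.0607). With CIC::DUX4 HSPD1 was called lower in 5 of the 9 other settings and without empty vector replicate 2 (-0.18, edgeR adjusted p 0.032), and with CIC::NUTM1 it was called higher with limma-trend (adjusted p 0.0374). Between the fusions HSPD1 differed by 0.28 ± 0.05, higher with CIC::NUTM1 (edgeR adjusted p 0.000298). HSPH1, the inducible HSP110, was at 261 ± 9.74, 245 ± 4.97 and 281 ± 11.1 CPM in the 3 groups and differed between the fusions by 0.20 (edgeR adjusted p 0.0321), a call lost in 4 of the 6 refits without a library and in 4 of the 9 other settings. The calls of DNAJB6, HSP90AA1, HSP90AB1, HSPA5 and HSPD1 between the fusions held in all 6 of these refits and in the 9 other settings.

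**Figure D4:**
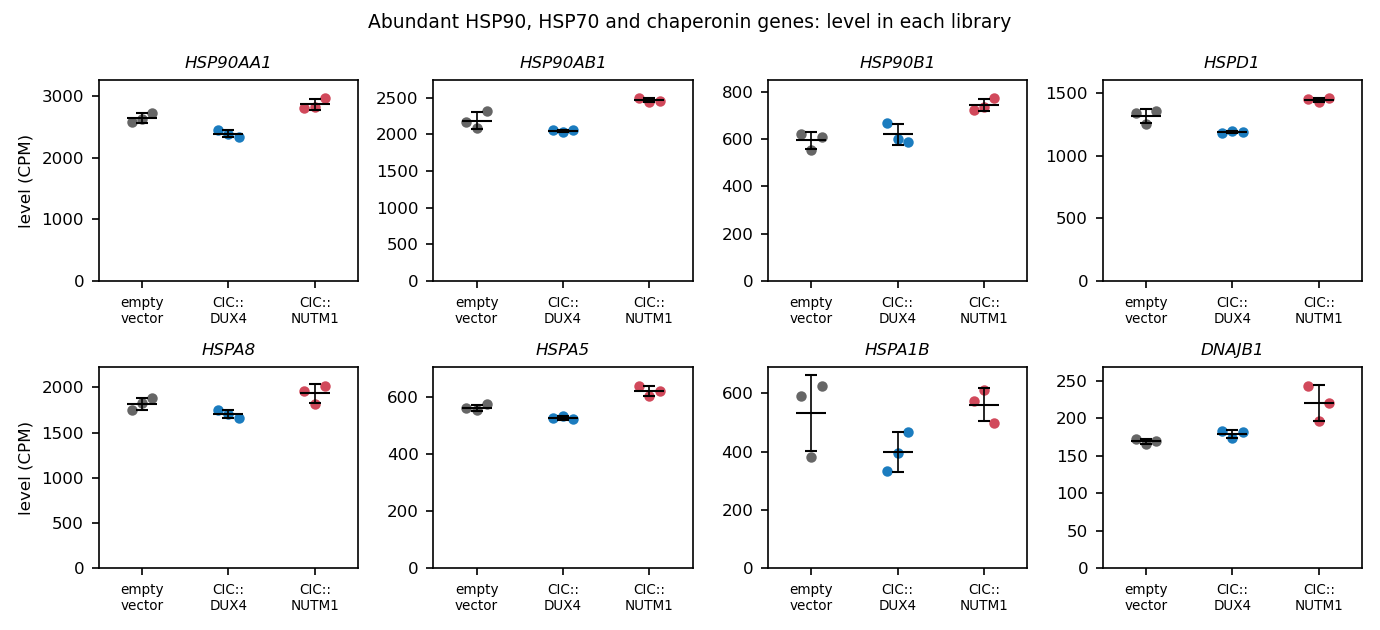
Level in each library of the 3 HSP90 genes, HSPD1, HSPA8, HSPA5, HSPA1B and DNAJB1, in TMM-scaled CPM on axes from 0, with the mean and SD of 3 libraries. CIC::NUTM1 libraries lie above CIC::DUX4 libraries for each of the 8 genes, and the HSPA1B controls spread from 383 to 627 CPM.

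Of 12 members listed as heat-inducible, 6 were called in the comparison of the fusions, each higher with CIC::NUTM1: DNAJB1, HSP90AA1, HSP90AB1, HSPA8, HSPD1 and HSPH1. The other 6 were not called. That is 50% of the list, against 4.97% of all genes tested and 9.12% of genes with a mean of at least 100 CPM. Against empty vector, DNAJB1 and HSP90AB1 rose with CIC::NUTM1 (16.7%, against 11.5% of all genes tested), and HSP90AA1 fell with CIC::DUX4 (8.33%, against 1.27%). The median log2 fold change of the 12 was -0.09 and 0.11 against empty vector for CIC::DUX4 and CIC::NUTM1, and 0.19 between the fusions, beside -0.00, -0.00 and -0.01 for all genes tested. The list includes HSP90AB1 and HSPA8, described above as constitutive, so it is not confined to strictly inducible genes. It was drawn up with earlier results of these data known, and the calls it holds are those already given.

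The stress-induced HSP70 genes of that list were not called with all 9 libraries. HSPA1B (ENSG00000204388), the classical stress-induced HSP70, was at 590, 383 and 627 CPM with empty vector, 333, 396 and 468 with CIC::DUX4 and 572, 611 and 500 with CIC::NUTM1. The fusion groups did not overlap, but the spread within groups was wide and its changes were -0.42, 0.07 and 0.49, with edgeR adjusted p of 0.376, 0.88 and 0.303. Without empty vector replicate 2, the control at 383 CPM, HSPA1B was called lower with CIC::DUX4 (-0.61, edgeR adjusted p 0.0246), and with only the 2 fusion groups fitted it was called between them (0.48, edgeR adjusted p 0.0466). HSPA1A, whose sequence is nearly identical, was counted at 1.41 CPM or less in every library, so the split of reads between the pair is uncertain. Added together, they gave 534 ± 131, 399 ± 68.1 and 561 ± 56.5 CPM. HSPA6, which is hardly expressed without stress, stayed at or below 1.49 CPM (0.75 with CIC::DUX4, edgeR adjusted p 0.41). DNAJA1, the main cytosolic J-domain protein here, was at 387 ± 3.10, 387 ± 6.08 and 432 ± 27.4 CPM and narrowly missed the threshold with CIC::NUTM1 (edgeR adjusted p 0.0517). Without CIC::NUTM1 replicate 2 it was called there (0.21, edgeR adjusted p 0.0125) and against CIC::DUX4 (0.21, edgeR adjusted p 0.026).

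Among 9 members of the endoplasmic reticulum, DNAJB11, DNAJC1 and HSP90B1 rose with CIC::NUTM1 against empty vector (33.3%, against 11.5% of all genes tested), and DNAJB11 rose with CIC::DUX4 (11.1%, against 6.96%). Between the fusions, DNAJC1, HSP90B1 and HSPA5 were called, each higher with CIC::NUTM1 (33.3%, against 4.97%). The other members of that list (HSPA13, DNAJB12, DNAJB14, DNAJC3 and DNAJC10) passed no test. Of the 8 mitochondrial members, HSPD1 alone was called by edgeR, in the comparison of the fusions (12.5%, against 4.97%). Of the 26 DNAJC genes, all tested, 24 were called in no comparison, with changes between -0.45 and 0.40. DNAJC8, the most abundant of them per length and a splicing-associated J-domain protein, was at 185 ± 5.73, 180 ± 9.40 and 200 ± 5.34 CPM. Members that were not called were not shown to be constant.

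Summed over all 70 members, the libraries held 13964, 13711 and 14525 CPM with empty vector, 13467, 13279 and 13157 with CIC::DUX4 and 15324, 14994 and 15613 with CIC::NUTM1. The 3 groups did not overlap. As a share of all counts, without TMM scaling, members took 1.39% to 1.45% with empty vector, 1.32% to 1.36% with CIC::DUX4 and 1.48% to 1.52% with CIC::NUTM1. The HSP90 class contributed most, at 5432 ± 200, 5062 ± 106 and 6077 ± 109 CPM. HSP70 genes summed to 3731 ± 154, 3423 ± 14.5 and 3934 ± 72.6 CPM and the chaperonin pair to 1336 ± 59.0, 1207 ± 10.3 and 1459 ± 20.0 CPM. The DNAJB genes kept another order, at 516 ± 6.97, 554 ± 5.47 and 626 ± 47.9 CPM, with both fusions above empty vector. The means had that order too for DNAJA (674 ± 12.8, 692 ± 6.63 and 754 ± 34.5 CPM) and HSP110 genes (843 ± 17.3, 849 ± 22.1 and 916 ± 41.8 CPM). In both classes the empty vector and CIC::DUX4 libraries overlapped. DNAJC genes (1437, 1419 and 1452 CPM) and small heat shock proteins (98.6, 94.5 and 93.5 CPM) overlapped between groups. These sums are set by the few most abundant genes and carry no test.

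**Figure D5:**
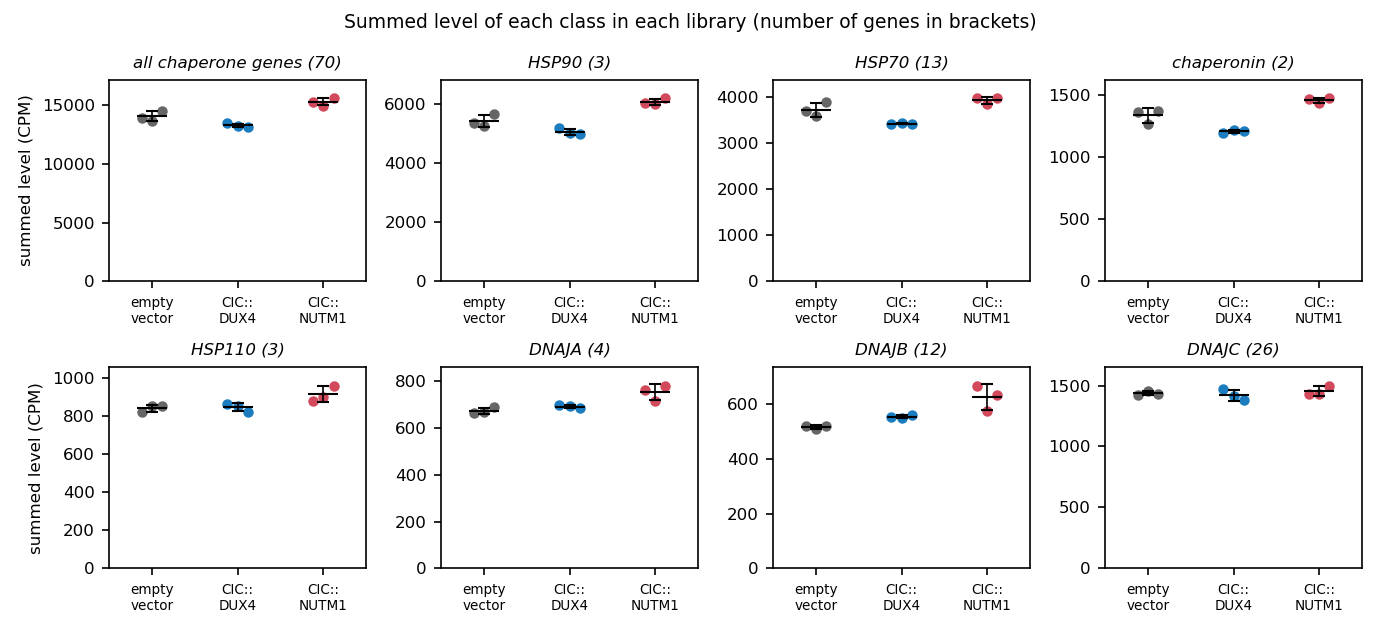
Summed TMM-scaled CPM of all 70 members and of 7 classes in each library, on axes from 0, with the mean and SD of 3 libraries and the number of genes in brackets. All members, HSP90, HSP70 and the chaperonin pair are lowest with CIC::DUX4, and the DNAJA, DNAJB and HSP110 genes have their lowest mean with empty vector.

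The wider chaperone system was read from lists of 64 genes outside the rule: HSF factors, co-chaperones of HSP70 and HSP90, the CCT chaperonin with prefoldin, and other folding factors. Of these, 61 were tested. With CIC::DUX4 only HSBP1L1, which resembles the HSF1-binding protein HSBP1, was called by edgeR (1.64% of the 61, against 6.96% of all genes tested higher), and it was rare, at 2.29, 2.58 and 1.16 CPM with empty vector and 4.04, 4.74 and 3.53 with the fusion (1.03 ± 0.29, edgeR adjusted p 0.0251). With CIC::NUTM1, 10 rose: HSF2, BAG3, GRPEL1, CDC37, CHORDC1, PTGES3, STIP1, TCP1, CCT8 and PDIA6. That is 16.4%, against 11.5% of all genes tested and 13.7% of genes with a mean of at least 100 CPM. The 61 had a median level of 141 CPM, against 17.2 CPM for all genes tested. HSF1, the master regulator of the heat shock response, was at 154, 150 and 156 CPM with empty vector. Its levels were 171, 154 and 177 CPM with CIC::DUX4 and 186, 167 and 160 with CIC::NUTM1, the latter all above the controls. HSF1 was called in no comparison, with changes of 0.13 and 0.16 against empty vector (edgeR adjusted p 0.325 and 0.137) and 0.03 between the fusions (edgeR adjusted p 0.886).

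Of 14 HSP90 co-chaperones, 4 rose with CIC::NUTM1 against empty vector (28.6%, against 11.5% of all genes tested) and 3 were higher than with CIC::DUX4 (21.4%, against 4.97%). Among genes with a mean of at least 100 CPM, 13.7% and 9.12% were called higher in these comparisons. The median level of this list was 220 CPM. Whether this list differed from the others was not tested. CHORDC1, a CHORD-domain protein that binds HSP90, was at 125, 118 and 127 CPM with empty vector, 124, 134 and 117 with CIC::DUX4 and 157, 153 and 176 with CIC::NUTM1. It rose by 0.40 ± 0.07 against empty vector (edgeR adjusted p 0.000161) and by 0.37 against CIC::DUX4 (edgeR adjusted p 0.000994). STIP1, the adaptor that passes clients from HSP70 to HSP90, had 564, 547 and 585 CPM, 545, 526 and 558 CPM, and 704, 621 and 686 CPM in the 3 groups, higher with CIC::NUTM1 by 0.25 (edgeR adjusted p 0.00245) and 0.30 (edgeR adjusted p 0.000684). PTGES3, the p23 co-chaperone, differed by 0.22 and 0.30 in the same comparisons (edgeR adjusted p 0.00369 and 0.000364). TCP1, a subunit of the cytosolic CCT chaperonin, rose from 683, 703 and 705 CPM to 826, 785 and 858 CPM (0.24, edgeR adjusted p 0.00135). ST13, STUB1 and CCT5 were called between the fusions, together with CHORDC1, PTGES3, STIP1, TCP1 and PDIA6. These are 8 genes in all, each higher with CIC::NUTM1. They are 13.1% of those tested, against 4.97% of all genes tested and 9.12% of genes with a mean of at least 100 CPM.

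Of the 9 matched members that were called between the fusions, 6 held GAANNTTC in a promoter window (66.7%) and 5 held the alternation of 3 units (55.6%). Among the 55 tested members with a window the shares of genes were 25.5% and 12.7%, and among all 27305 genes with one they were 8.21% and 0.608%. These are HSP90AA1, HSP90AB1, HSPA8, HSPD1 and DNAJB6 for the longer form, whose stretches are printed above, and DNAJB1 with the shorter form alone. The rest of the 9 held neither GAANNTTC nor TTCNNGAA in a window. Other members with the same letters were not called, among them HSPB1 and HSPA1B, and DNAJA1 and HSPA6 hold 3 units without being called in any comparison. The search for 3 units was added after the data were seen. These shares describe genes picked by their calls in the same data, and a part of HSF1 in the calls was not tested.

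The 10 members that did not pass the filter were DNAJA4, DNAJB3, DNAJB7, DNAJB8, DNAJB13, HSPA7, HSPB2, HSPB3, HSPB6 and HSPB7. Their highest count in any library was 18, for DNAJB13, and DNAJB3, HSPA7 and HSPB2 had 0 counts in all 9 libraries. Some counts of tested members are uncertain. HSPE1, the co-chaperonin, was at only 17.4 ± 4.51, 16.0 ± 3.28 and 14.2 ± 2.24 CPM, far under HSPD1 with which it forms a complex. In the count table, 26 pseudogenes of it hold 309 counts, or 9.88% of the counts of HSPE1. HSPB8, HSPA4L, HSPA14, DNAJB11 and DNAJC1 each overlap 1 other annotated entry on the same strand, whose levels were not examined. HSPD1 overlaps HSPE1 and MOB4, and HSP90AA1 overlaps WDR20, on the opposite strand. HSP90B1 overlaps TTC41P, which rose with CIC::DUX4 (1.71, edgeR adjusted p 0.0391) at no more than 2.07 CPM on average. The libraries were made with a directional kit, but whether counting used the strand is not given in the sources used here.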

How the data were processed

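PolyA RNA of 9 libraries was sequenced, 3 in each group, and groups came from the sample labels. The authors deposited a table of raw counts by Ensembl gene ID, made with STAR 2.7.10b on GRCh38 per the submitters' processing notes; the annotation is not given in the sources used here. They also deposited log2 CPM made with edgeR 3.40.2 in R 4.2.2 per the same notes. For 11512 genes these equalled, within 4.97e-14, log2 CPM computed here (TMM, prior count 2).

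Symbols were matched for 62622 of 62700 IDs, 34765 genes had at least 1 count, and 17576 passed filterByExpr on the groups. Counts were fitted with edgeR 4.0.16 in R 4.3.3 (TMM, robust quasi-likelihood, 1 mean per group over all 9 libraries), with Benjamini-Hochberg adjustment over all genes tested and a threshold of 0.05. The coefficient of variation from the common dispersion was 10.1%. An SE is the log2 fold change divided by the square root of the quasi-likelihood F. Levels are TMM-scaled CPM, and levels per length use GENCODE 29 exons. With 3 libraries against 3, an exact permutation test cannot go under 0.1, so tests come from the fit over all genes. Reads carried no molecular identifiers, so counting error understates the error of a level.

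Named members are those called in any comparison, HSPB8, the heat-inducible members and the most abundant per length of each class; others singled out, such as HSPA9, HSPA13 and HSPB9, were chosen after their values were seen. Members and lists were chosen with earlier results of these data known. The share of calls among genes of at least 100 CPM and the motifs TTCNNGAA and 3 units were added after the data were seen. Same-numbered libraries did not vary together (correlations of deviations -0.0308 to 0.0753 in 9 pairs), so no block was used. On simulated data with 17236 genes for CIC::DUX4 against empty vector, edgeR recovered 65% of changes of 0.6 and 98% of changes of 1.5 on the log2 scale, with 5.23% of calls false, and DESeq2 1.42.0 recovered 67% and 98% (9.34% false). Changes were put only into genes above a mean count that HSPB8 did not reach. None under 0.6 was simulated, so these rates do not cover most of the changes called here, which were smaller. Alternatives were other scalings, filters, DESeq2, limma-trend (limma 3.58.1), the compared groups alone, a replicate block and leaving out each library. Protein features of the members were planned and not run. Promoter sequences are from RefSeq (GRCh38.p14). Figures were drawn with matplotlib 3.10.9.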

Additional observations from a re-analysis of the deposited data

How the results depend on the processing

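Against empty vector with CIC::DUX4, 3 members were called higher in each of the 9 settings other than leaving out a library, and 1 to 2 in the refits without 1 library. The 2 members called lower (HSP90AA1 and HSPB8) became 1 with DESeq2 size factors in edgeR, 1 with at least 10 counts in every library, 3 with library totals, 3 with upper quartile factors, 3 with no filter, 4 when only the 2 groups compared were fitted, and 0 to 2 without 1 library. The genes changed too: HSPD1 joined with library totals and upper quartile factors, DNAJC12 with no filter, and both with the 2 groups alone. The 2 called were HSPB8 and DNAJC12 with DESeq2, HSP90AA1 and HSPD1 with limma-trend, and HSPA1B and HSPD1 without empty vector replicate 2. HSPB8 (-1.35) was -1.23 with limma-trend and not called, and -1.72 to -1.15 without 1 library. With CIC::NUTM1, the 10 members called higher became 5 to 12 without 1 library, and the 1 called lower became 3 with library totals, 3 with upper quartile factors, 2 with DESeq2, 0 with only the 2 groups compared and 0 to 3 without 1 library. HSPB8 there ran from -1.41 to -0.70 without 1 library. Of the 10 called higher with CIC::NUTM1, DNAJB11, HSPA14 and HSP90AB1 lost their calls with upper quartile factors. DNAJB11 and HSPA14 lost them with library totals, and HSP90AB1 and HSPA14 with no filter. HSPA14 also lost its call with DESeq2 size factors in edgeR and with a replicate block. Between the fusions, 10 members higher became 6 to 11 without 1 library, and HSPB8 (0.39) ran from -0.056 to 0.75. DNAJC1, HSPA8 and HSPH1 lost their calls in this comparison with library totals and with the 2 groups alone. HSPA8 and HSPH1 also lost them with upper quartile factors, HSPA8 with DESeq2 and HSPH1 with no filter. The cause of these shifts was not tested; refits without a library and with 2 groups rest on fewer samples.

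With the replicate number as a block, HSPB8 with CIC::DUX4 was -1.30 and not called (edgeR adjusted p 0.058). The block gave 3 higher and 2 lower for CIC::DUX4 (HSP90AA1 and HSPD1, with HSPB8 lost and HSPD1 gained at -0.15, edgeR adjusted p 0.0487), 9 and 1 for CIC::NUTM1, and 10 and 0 between the fusions. The numbers were not shown to pair the libraries.

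Signs changed for uncalled values near 0 or of rare transcripts, and for HSPB8 between the fusions. With CIC::DUX4, DNAJA1 was -0.0096 with upper quartile factors, -0.019 with no filter, -0.0084 with the 2 groups alone and -0.010 to 0.012 without 1 library. DNAJB6 was -0.0044, -0.014 and -0.0034 in those settings and -0.015 to 0.016 without 1 library. HSPA14 was -0.0029 with no filter and -0.029 to 0.072 without 1 library. Leaving out 1 library gave -0.0025 to 0.091 for HSP90B1, -1.20 to 0.81 for HSPA1A, -0.13 to 0.016 for HSPB1 and -0.27 to 0.098 for HSPE1. With CIC::NUTM1, HSPA1A was 0.21 with limma-trend, 0.098 with the block and -0.49 to 0.49 without 1 library, and HSPA1B ran from -0.12 to 0.21. Between the fusions, DNAJC12 was -0.0046 with DESeq2 size factors, -0.042 with library totals, -0.028 with upper quartile factors, -0.0041 with DESeq2, -0.0097 with limma-trend, -0.013 with the 2 groups alone, -0.0033 with the block and -0.12 to 0.10 without 1 library. HSPA1A was 0.10 with limma-trend and -0.77 to 1.12 without 1 library, and HSPA4L -0.012 with library totals and -0.077 to 0.089 without 1 library. DNAJB11 ran from -0.096 to 0.075 and HSPB1 from -0.14 to 0.070. No scaling moved the median of all genes by more than 0.05 on the log2 scale. Over the named members other than HSPB8 and all alternatives, 936 values kept direction and side of the threshold, 72 lost a call, 18 gained one and 47 changed sign. The 936 include values not called in the main fit, which cannot lose a call, so this tally overstates the stability of the calls. Depth limits HSPB8, HSPA6, HSPA1A and HSPB9, which hold few counts.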
